A study of Homo sapiens with 22 samples.

Results

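In 22Rv1 prostate cancer cells that overexpress the linker histone variant H1-10, 2332 regions were called for the transcription factor E2F3 at places where the control cells had no E2F3 region and where no region of serine 5 phosphorylated RNA polymerase II (Pol2S5p) was called in the overexpressing cells. These new E2F3 sites without Pol2S5p were selected on the presence or absence of called peaks: a region of the E2F3 list of H1-10 overexpressing cells was taken if it lay on an autosome other than chromosome 13 and shared no base with a region of the E2F3 control list or of the Pol2S5p list of H1-10 overexpressing cells. The E2F3 list of overexpressing cells held 4296 regions, of which 3639 lay on the 21 chromosomes used, 549 on chromosome 13 and 108 on X, Y or the mitochondrial genome. Of the 3639, 3063 were new against the control list (84.2%), and 2429 had no Pol2S5p region (66.7%). The sites that met both conditions made up 64.1% of the 3639 and 76.1% of the new sites. Both shares follow from the rule and are a description.

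E2F3 belongs to the E2F family of DNA-binding factors, which the retinoblastoma protein holds in check until cyclin-dependent kinases phosphorylate it. Released E2F3 activates genes of DNA replication and of the entry into S phase, and the family is known for binding close to transcription start sites. Pol2S5p is the form of the polymerase that accumulates where transcription starts, so E2F3 at an active promoter is usually found together with it. H3K27me3 is the mark of Polycomb-silenced chromatin, and H1-10 is one of the linker histones that bind the DNA between nucleosomes.

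Chromatin immunoprecipitation and sequencing was done in 22Rv1, an established human prostate cancer line. Of the 22 samples of the series, 8 peak lists were used, each from 1 library: E2F3, Pol2S5p and H3K27me3 in control cells (Ctrl) and in cells with H1-10 overexpression (H1-10 OE), and Pol2S5p in cells given an siRNA, either the control (siCtrl) or one directed at E2F3 (siE2F3). The labels name neither the construct nor a clone, and only the peak names of the siCtrl and siE2F3 lists, not their sample labels, say that those cells overexpressed H1-10. With 1 library per condition there is no replicate error and no test. The intervals given are 95% Wilson intervals for shares, which cover counting error only. The H1-10 OE and Ctrl lists differ in length (4296 against 22988 regions for E2F3, 40626 against 35493 for Pol2S5p, 18395 against 2540 for H3K27me3), and the siCtrl and siE2F3 lists hold 83650 and 83067 regions. Read depth is unknown, so absence from a list means only that no region was called there.

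The sites were set beside 3 other classes on the same chromosomes: 731 new E2F3 sites that overlapped Pol2S5p of H1-10 OE, 576 E2F3 sites of H1-10 OE shared with Ctrl, and 7018 E2F3 sites of Ctrl without Pol2S5p of Ctrl. Few sites lay at the boundary of the rule. The member nearest to a Pol2S5p region was 20 bp from it (chromosome 4, 84178055 to 84178343, fold enrichment 4.13), and the next was 36 bp away (chromosome 5, 159140174 to 159140728, fold enrichment 8.23). Just outside, a site on chromosome 6 (164386513 to 164386777, fold enrichment 4.06) shared 9 bp with Pol2S5p, and one on chromosome 10 (73857642 to 73858049, fold enrichment 5.07) shared 25 bp. The 3 next on either side lay 43 to 54 bp away and shared 44 to 61 bp. Only 9 members lay within 100 bp of Pol2S5p, and only 10 excluded sites shared at most 100 bp with it. The member nearest to an E2F3 region of Ctrl, on chromosome 7 at 83652522 to 83652898, lay 75 bp from it.

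The name "without Pol2S5p" was checked in the 3 Pol2S5p lists that the rule did not use. In all, 2261 members (97.0%) overlapped no Pol2S5p region of any list, and 71 overlapped at least 1. The siCtrl list held a region at 40 members (1.72%, interval 1.26 to 2.33%), where 20.1% of all E2F3 sites of H1-10 OE had one. The siE2F3 list held one at 25 members (1.07%, 0.727 to 1.58%; 16.5% of all E2F3 sites), and the Ctrl list at 23 members (0.986%, 0.658 to 1.48%; 14.6% of all E2F3 sites). Among the new sites with Pol2S5p, 31.2% (27.9 to 34.6%) overlapped siCtrl and 17.5% (14.9 to 20.4%) siE2F3. These values are a description, since the rule removed overlap with the H1-10 OE list and 88.8% and 85.2% of that list's regions overlapped siCtrl and siE2F3. The strongest of the 71 was on chromosome 6 (116726900 to 116727665), with an E2F3 fold of 15.8. It overlapped a region of both siCtrl and siE2F3, while the nearest Pol2S5p region of H1-10 OE was 33.8 kb away.

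Chromosomes 3, 4, 6 and 7 held the sites most densely, and chromosomes 22, 19, 20 and 16 least. Over all 21 chromosomes there were 0.865 sites per Mb, where the length of a chromosome is the span from the first to the last region in any of the 8 lists. Chromosome 3 held 293 sites (1.48 per Mb), chromosome 4 held 281 (1.47 per Mb), chromosome 6 held 237 (1.39 per Mb) and chromosome 7 held 184 (1.16 per Mb). Together these 4 chromosomes made up 26.6% of the length and held 42.7% of the sites (40.7 to 44.7%). They held 34.7% (31.4 to 38.3%) of the new sites with Pol2S5p, 26.9% (23.4 to 30.7%) of the shared sites and 25.2% (24.2 to 26.3%) of the Ctrl sites without Pol2S5p. These 4 chromosomes were picked by the density of the members, so the members' excess over length and their lead over the other classes are built in. The shared sites and the Ctrl sites without Pol2S5p were spread close to length over them. New sites with Pol2S5p exceeded length there, but were densest on chromosome 5 (0.432 per Mb), which is not among the 4.

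At the other end, chromosome 22 held 1 site (0.0286 per Mb), chromosome 19 held 2 (0.0340 per Mb), chromosome 20 held 6 (0.0955 per Mb) and chromosome 16 held 23 (0.255 per Mb). These 4, likewise picked by the density of the members, make up 9.15% of the length and held 1.37% of the sites (0.974 to 1.93%). They held 2.33% (1.46 to 3.69%) of the new sites with Pol2S5p, 11.1% (8.80 to 13.9%) of the shared sites and 841 of the 7018 Ctrl sites without Pol2S5p. Chromosome 19 shows the contrast within 1 chromosome: of its 32 E2F3 sites of H1-10 OE, 29 were shared with Ctrl and only 2 were new sites without Pol2S5p, while on chromosome 3 that was the case for 293 of 374 (78.3%, 73.9 to 82.2%). Chromosome 18 was also rich in them relative to its E2F3 sites, with 60 of 79 (75.9%, 65.5 to 84.0%). Chromosomes with many Pol2S5p regions tended to hold few sites. Pol2S5p of H1-10 OE had 60.7 regions per Mb on chromosome 19 and 39.1 on chromosome 22, but 6.72 on chromosome 4 and 10.5 on chromosome 3. Because the rule removed overlaps with this list, part of that order is built in. Pol2S5p of Ctrl, which the rule did not use, had 52.3 and 34.4 regions per Mb on chromosomes 19 and 22, against 7.18 and 8.10 on chromosomes 4 and 3. Chromosome 18 had the lowest density in both lists (5.76 and 5.15 regions per Mb) and held 0.769 sites per Mb, below the overall value, so the order was not strict.

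**Figure D1:**
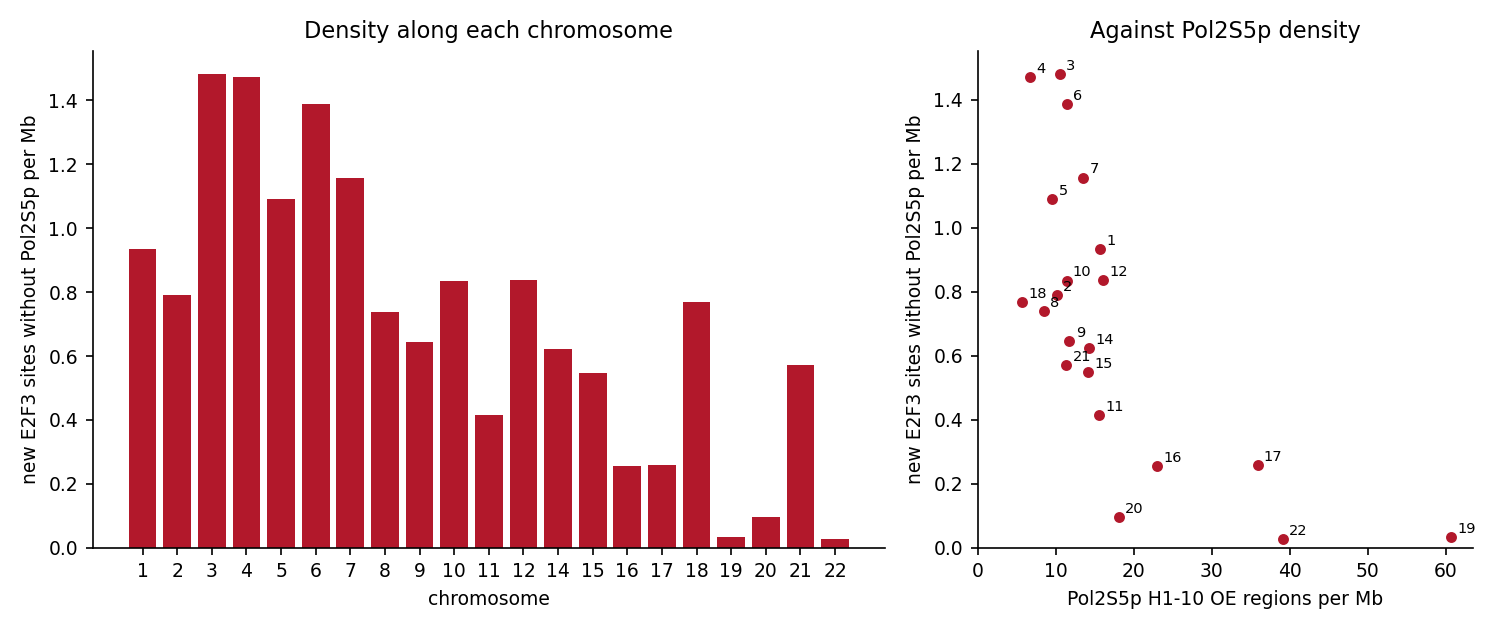
New E2F3 sites without Pol2S5p per Mb of each chromosome (bars, left) and the same values against Pol2S5p H1-10 OE regions per Mb (right, 1 point per chromosome, labelled with its number). Chromosomes 3, 4 and 6 stand highest at 1.39 to 1.48 sites per Mb, and chromosomes 19 and 22, with 60.7 and 39.1 Pol2S5p regions per Mb, stand lowest.

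The sites were also rare near chromosome ends. Within 5 Mb of either end of the spanned length lay 31 of the 2332 (1.33%, 0.938 to 1.88%), although these stretches make up 7.79% of the length. The same stretches held 3.15% (2.11 to 4.68%) of the new sites with Pol2S5p, 10.1% (7.87 to 12.8%) of the shared sites and 13.8% of the Ctrl sites without Pol2S5p.

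The sites were narrow, and by significance weaker than the other classes of the same list. Their median width was 361 bp, with quartiles of 272 and 485 bp and a range of 265 to 2698 bp, and together they covered 975 kb. The narrowest width found in the list, 265 bp, was that of 539 members (23.1%, 21.4 to 24.9%), against 58 of 731 new sites with Pol2S5p (7.93%, 6.19 to 10.1%) and 27 of 576 shared sites (4.69%, 3.24 to 6.73%). Median widths of those 2 classes were 515 and 383 bp. A width of at least 1 kb was reached by 41 members (1.76%) and by 79 new sites with Pol2S5p (10.8%, 8.76 to 13.3%). Ctrl sites without Pol2S5p, which come from another list, had a median width of 382.5 bp, and 2.17% (1.85 to 2.53%) reached 1 kb. Narrow sites were thus not particular to the members.

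Strength showed the same order for the new sites. The authors' fold enrichment at the summit, a ratio their peak caller computed, had a median of 5.70 at the members (quartiles 5.07 and 7.13), 8.23 at new sites with Pol2S5p and 5.07 at shared sites. By significance the shared sites stood higher: 49.2% of the members (47.2 to 51.2%), 77.2% of the new sites with Pol2S5p (74.0 to 80.1%) and 82.3% of the shared sites (79.0 to 85.2%) had a deposited -log10 q of 5 or more. The fold values came in steps. Of the members, 1937 (83.1%) had a fold within 0.002 of a whole multiple of 0.633, the median lay at 9 such steps, and the 4 commonest values (4.43, 5.07, 5.70 and 6.33) covered 1253 members (53.7%). The number of reads behind a step is not given in the sources used here.

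**Figure D2:**
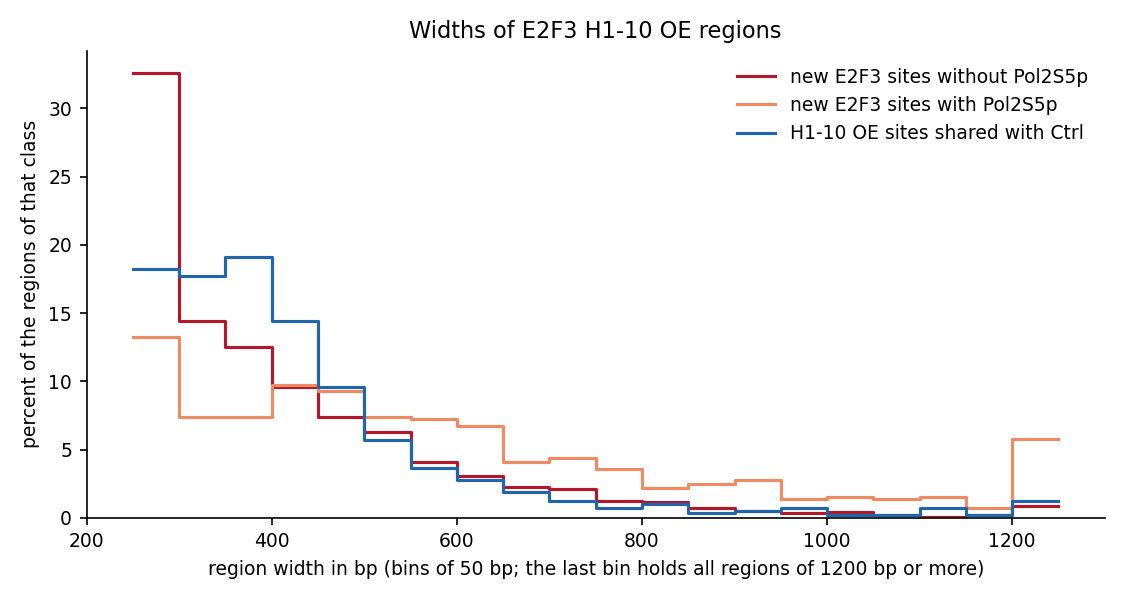
Widths of E2F3 H1-10 OE regions in bins of 50 bp, as the percent of each of 3 classes. The new sites without Pol2S5p pile up in the narrowest bin, which holds the 539 members of 265 bp, while 10.8% of the new sites with Pol2S5p reach 1 kb.

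Along the chromosomes the sites came in clusters, and they shared these clusters with the new sites that carried Pol2S5p. The median distance from a member to the nearest other new E2F3 site was 38.6 kb, nearly the same as for new sites with Pol2S5p (39.7 kb). From shared sites the distance to the nearest new site was 688 kb, and from Ctrl sites without Pol2S5p it was 899 kb. All 4 classes were measured to the same 3063 new sites, a site itself left out. Members made up 2332 of these and new sites with Pol2S5p 731, so both new classes were measured partly to themselves. From a member the median distance was 54.3 kb to another member and 377 kb to one of the fewer new sites with Pol2S5p. To the nearest member it was 73.8 kb from new sites with Pol2S5p, 910 kb from shared sites and 1224 kb from Ctrl sites without Pol2S5p. Another new site lay within 100 kb of 64.8% of the members (62.8 to 66.7%) and of 62.0% (58.4 to 65.4%) of the new sites with Pol2S5p, but of 21.5% (18.4 to 25.1%) of the shared sites and 12.7% (11.9 to 13.5%) of the Ctrl sites without Pol2S5p. At a distance of at most 5 kb the shares were 25.5% (23.7 to 27.3%) of the members, 28.3% of the new sites with Pol2S5p, 5.56% of the shared sites and 1.28% of the Ctrl sites without Pol2S5p.

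**Figure D3:**
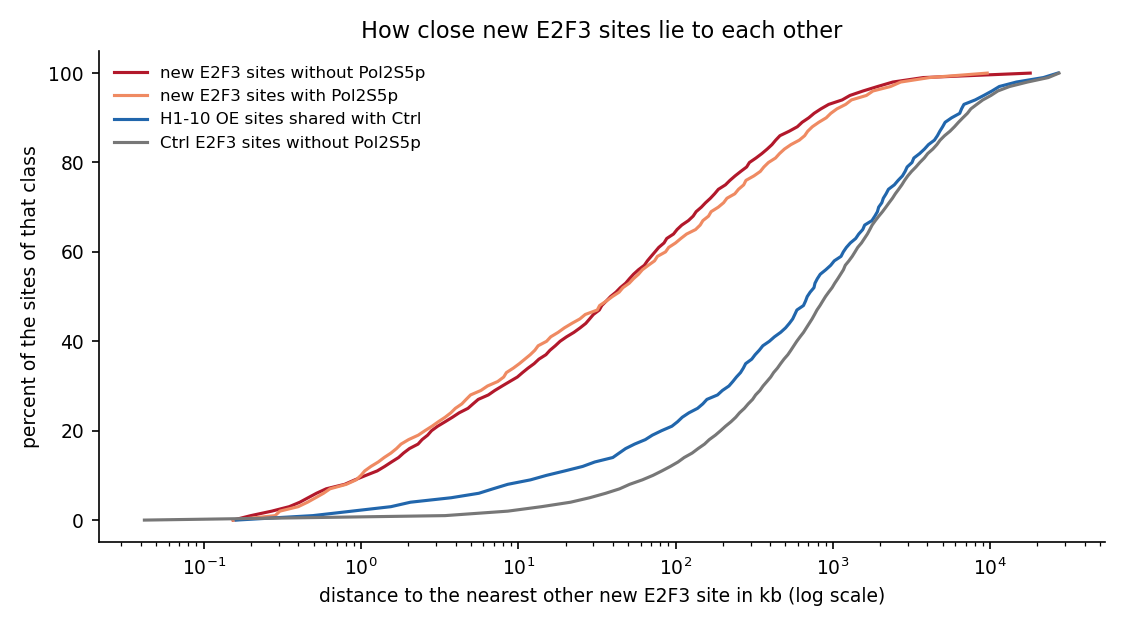
Cumulative percent of each class against the distance to the nearest other new E2F3 site (log scale). The curves of new sites without and with Pol2S5p run together, with medians of 38.6 and 39.7 kb, and lie left of shared sites and Ctrl sites without Pol2S5p, with medians of 688 and 899 kb.

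Counting members alone, another member lay within 100 kb of 59.2% (57.2 to 61.2%) and within 20 kb of 804 (34.5%, 32.6 to 36.4%). Joined over gaps of at most 20 kb, the 804 formed 301 groups, of which 205 were pairs, 84 held 3 to 5 sites and 12 held 6 or more. The other 1528 members stood alone at this distance. Of 5539 windows of 500 kb, 1135 (20.5%) held a member, and the 100 windows with 5 or more held 729 members (31.3%). The variance of the window counts was 3.58 times their mean, against 2.04 for new sites with Pol2S5p and 1.41 for shared sites, a ratio that also grows with the number of sites. Grouped sites were somewhat wider than lone ones: the median width was 400 bp with another member within 20 kb and 319 bp for the 400 members with none within 500 kb. The median fold enrichment was 6.33 and 5.70.

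The 12 largest groups lay on 7 chromosomes and spanned at most 58.0 kb. None held a Pol2S5p region of Ctrl or an H3K27me3 region of either list. The groups are short, and how often other stretches of this length hold such regions was not computed, so these absences are a description. An E2F3 region of Ctrl lay in 3 of the groups. Of these 12, 6 held a new E2F3 site with Pol2S5p of H1-10 OE between the members, 2 a region of siCtrl and 2 a region of siE2F3. The largest, with 14 members, lay on chromosome 16 at 46385953 to 46432853, and no region of any other list fell into it. It began at the first base after the longest stretch of chromosome 16 that held no region in any of the 8 lists, 34760876 to 46385952 (11.6 Mb). It held 14 of the 23 members of that chromosome, with folds of 6.97 to 36.7. Places known for high background were not removed from the lists, and whether this group marks E2F3 binding was not tested.

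The window with most members, from 80 to 80.5 Mb of chromosome 7, held 18 of them, together with 3 new sites with Pol2S5p and no shared site. E2F3 of Ctrl had 4 regions in this window, Pol2S5p of Ctrl 1, Pol2S5p of H1-10 OE 3, and siCtrl and siE2F3 none. Its strongest member, at 80353756 to 80355112, was 1357 bp wide with a fold of 22.2 and lay 34.5 kb from Pol2S5p of H1-10 OE. Side by side, in this window and the next, lay 3 of the 12 largest groups: 11 members at 80352224 to 80410238, 6 at 80436666 to 80478631 and 9 at 80499975 to 80547867. The group of 9 enclosed 3 new sites with Pol2S5p, that of 11 enclosed 1, and that of 6 none.

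Farther along chromosome 7, 114 to 114.5 Mb held 16 members and 8 new sites with Pol2S5p, and no E2F3 or Pol2S5p region of Ctrl. Its strongest member, at 114055999 to 114056921 with a fold of 10.8, lay 1.19 kb from Pol2S5p of H1-10 OE. On chromosome 4, 112.5 to 113 Mb held 14 members and 4 new sites with Pol2S5p, with no E2F3 region and 1 Pol2S5p region of Ctrl. The strongest member there, at 112657567 to 112658021, had a fold of 9.50 and lay 7.93 kb from Pol2S5p of H1-10 OE. Chromosome 1 had a window of 14 members at 61.5 to 62 Mb that differed in holding 13 E2F3 regions and 6 Pol2S5p regions of Ctrl. Its members were weak, with a median fold of 5.07, and the strongest, at 61783664 to 61784278, had a fold of 6.33 and lay 5.83 kb from Pol2S5p of H1-10 OE. The fifth window, with 14 members, was that of the group on chromosome 16. On chromosome 4 a group of 9 members at 30913960 to 30958895 had folds of 5.07 to 18.4 and no region of any other list among them.

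The windows show how the sites were placed in relation to polymerase on a larger scale. By the H1-10 OE list, members were most frequent in windows with 3 to 5 Pol2S5p regions and less frequent in windows with none or with many. The 1614 windows without a Pol2S5p region of H1-10 OE held 0.177 members each, the 1145 windows with 1 to 2 held 0.579, and the 946 windows with 3 to 5 held 0.780. Above that the number was lower, with 0.614 with 6 to 10, 0.267 with 11 to 20, and 0.0783 in the 511 windows with over 20 Pol2S5p regions. New sites with Pol2S5p, which by the rule cannot overlap Pol2S5p where a window has none, rose and fell as well. They had 0.143 per window with 1 to 2 regions, 0.275 with 6 to 10 and 0.0959 with over 20. Shared sites were more frequent the more Pol2S5p regions a window held, from 0.00929 per window without Pol2S5p to 0.395 with over 20. Windows with at most 5 Pol2S5p regions made up 66.9% of all and held 72.3% of the members. They held 54.4% of the new sites with Pol2S5p, 23.1% of the shared sites and 47.5% of the Ctrl sites without Pol2S5p. The bins come from the list that the rule used, so these shares are partly set by it. Counted by the Pol2S5p list of Ctrl, which the rule did not use, windows with none held 0.400 members each, close to the mean of 0.421 over all windows, so the low value in empty windows was seen with the H1-10 OE list and not with this one. By the Ctrl list members peaked at 1 to 2 regions, with 0.594 per window, and had 0.0656 with over 20. New sites with Pol2S5p peaked in the same windows, with 0.181, and had 0.0503 with over 20, so this course was not particular to the members.

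Within this setting, the members lay closer to Pol2S5p of H1-10 OE than to that of Ctrl. The median distance was 46.6 kb to the H1-10 OE list, 59.4 kb to siCtrl, 65.6 kb to siE2F3 and 122 kb to Ctrl. The rule removed every site that touched the first list, and siCtrl and siE2F3 are the longer lists. The rule also removed the E2F3 sites shared with Ctrl. Of these, 80.4% overlapped Pol2S5p of Ctrl and 83.2% that of H1-10 OE. The members' distances are thus partly set by the rule, and their order is a description. With each list reduced to its 35493 strongest regions, a setting chosen after seeing the data, the members' medians were 50.5, 84.4, 91.9 and 122 kb. Ctrl sites without Pol2S5p had full-list medians of 22.8 kb to H1-10 OE, 12.7 kb to siCtrl, 16.6 kb to siE2F3 and 50.2 kb to Ctrl. New sites with Pol2S5p, which touch the H1-10 OE list by the rule, had 22.9 kb to siCtrl, 43.6 kb to siE2F3 and 108 kb to Ctrl. A shorter distance to H1-10 OE than to Ctrl was thus not particular to the members. The Ctrl and H1-10 OE lists carry the same folder name in their peak names and the 2 siRNA lists another, and whether the authors processed these differently was not tested. Within 5 kb lay a Pol2S5p region of H1-10 OE for 294 members (12.6%), of siCtrl for 233 (9.99%, 8.84 to 11.3%), of siE2F3 for 204 (8.75%, 7.67 to 9.96%) and of Ctrl for 91 (3.90%, 3.19 to 4.77%). With the members that overlap a list left out for that list, as the rule does for H1-10 OE, a setting chosen after seeing the data, 12.6% lay within 5 kb of Pol2S5p of H1-10 OE, 8.42% (7.35 to 9.63%) of siCtrl, 7.76% (6.74 to 8.92%) of siE2F3 and 2.95% (2.33 to 3.72%) of Ctrl. For Ctrl E2F3 sites without Pol2S5p, counted the same way, 14.2% lay within 5 kb of Pol2S5p of Ctrl (997 of 7018), 13.6% of H1-10 OE (735 of 5424), 15.3% of siCtrl (731 of 4770) and 14.8% of siE2F3 (754 of 5109). As shares of all 7018 the last 3 were 10.5, 10.4 and 10.7%, so which list came first there depended on the denominator.

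For most Pol2S5p regions of H1-10 OE next to the members, no region was called in Ctrl. Most had no called counterpart in siCtrl or in siE2F3 either. Of the 38669 Pol2S5p regions of H1-10 OE on these chromosomes, 57.5% (57.0 to 58.0%) overlapped a Pol2S5p region of Ctrl. Of the 305 within 5 kb of a member, 46 did so (15.1%, 11.5 to 19.5%). In siCtrl, also labelled by its peak names as H1-10 overexpressing, 88.8% of all and 41.6% (36.2 to 47.2%) of these 305 had a counterpart, and in siE2F3 85.2% of all and 33.4% (28.4 to 38.9%). Of the 305, 153 themselves carried a new E2F3 site, and 3 of these overlapped Ctrl (1.96%, 0.669 to 5.61%). Without them the share was 43 of 152 (28.3%, 21.7 to 35.9%), against 58.5% of all Pol2S5p regions of H1-10 OE that hold no new E2F3 site. Strength moves with this: the nearest Pol2S5p regions had a median fold of 5.32 at under 1 kb from a member, 6.50 at 5 to 20 kb and 7.22 at 100 to 500 kb. Among Pol2S5p regions with a -log10 q of at least 5, likewise chosen after seeing the data, 22.2% of the 189 near a member and 73.9% of all 22867 overlapped Ctrl. The members themselves varied little with this distance: their median fold was 5.70 at under 1 kb from Pol2S5p, 6.28 at 1 to 5 kb, 6.33 at 100 to 500 kb and 5.70 at all other distances.

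**Figure D4:**
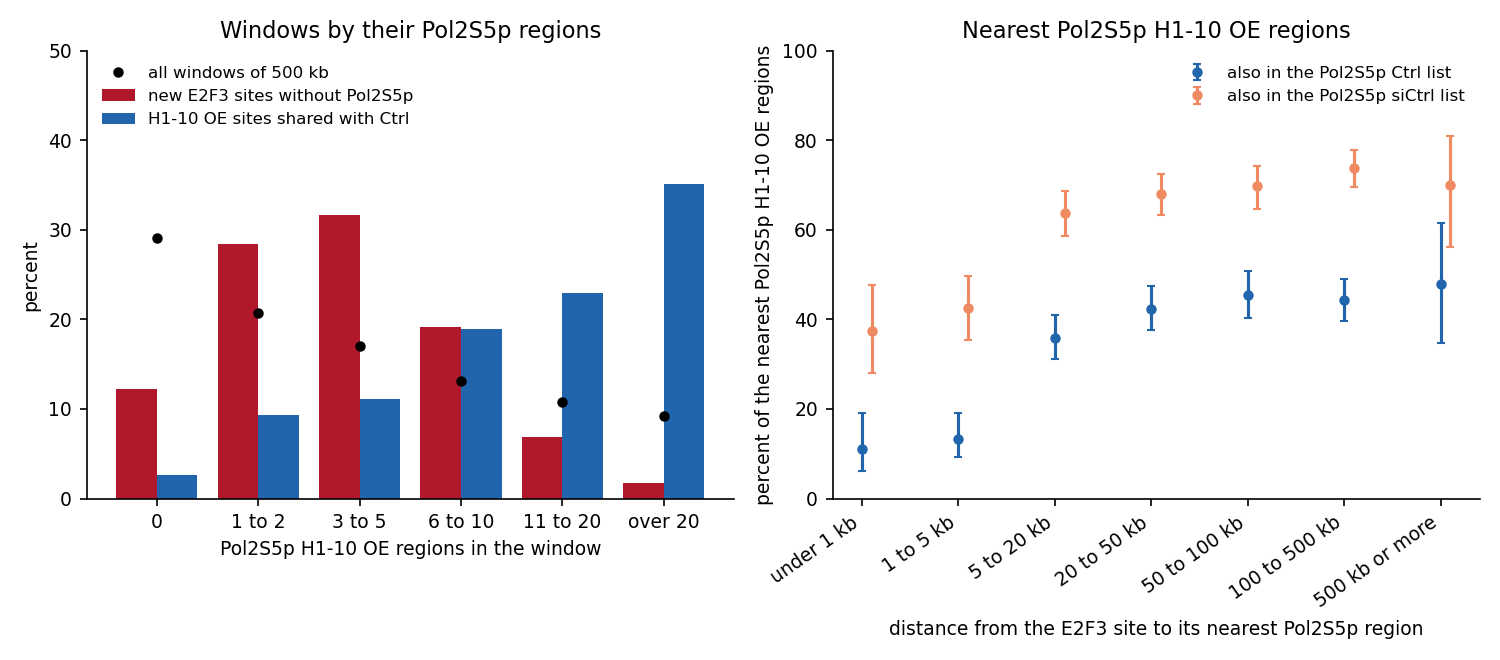
Left, percent of new E2F3 sites without Pol2S5p (red bars), of shared sites (blue bars) and of all 500-kb windows (dots) by the number of Pol2S5p H1-10 OE regions in the window. Right, percent of the Pol2S5p H1-10 OE regions nearest to a new site without Pol2S5p that were also in the Ctrl or siCtrl list, by distance, with 95% Wilson intervals. At 1 to 5 kb 13.4% were also in Ctrl, and at 100 to 500 kb 44.2% were.

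The sites lay far from called H3K27me3 regions. None of the 2332 overlapped one in Ctrl or in H1-10 OE, and a count of 0, taken as at most 3 counts, allows a share of up to 0.129% (the Wilson upper limit is 0.164%). Over all 3639 E2F3 sites of H1-10 OE such overlaps were as rare, at 0.0275% with the Ctrl list and 0.055% with the H1-10 OE list, so the absence of overlap does not set the members apart. Among Ctrl E2F3 sites without Pol2S5p, 2.64% (2.29 to 3.04%) overlapped the Ctrl list of the mark and 4.94% (4.46 to 5.48%) the H1-10 OE list. From a member to the nearest H3K27me3 region the median distance was 8485 kb in the Ctrl list and 1800 kb in the longer H1-10 OE list. The corresponding values were 5579 and 1348 kb for new sites with Pol2S5p, 2081 and 615 kb for shared sites, and 1515 and 443 kb for Ctrl sites without Pol2S5p. Cut to its 2540 strongest regions, as many as Ctrl has, the H1-10 OE list gave a median of 4447 kb, so the gap between the lists narrowed at equal length.

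Only 1 member lay within 5 kb of H3K27me3 of Ctrl, on chromosome 10 at 11065254 to 11065533, 280 bp wide with a fold of 4.43 and 4.51 kb from the mark. Only 3 lay within 5 kb of H3K27me3 of H1-10 OE. The nearest was on chromosome 20 at 22562493 to 22563749, 1257 bp wide with a fold of 8.17, at 0.519 kb. The others were on chromosome 3 at 22328900 to 22329164, at 2.87 kb, and on chromosome 2 at 53580415 to 53580682, at 3.29 kb. Within 500 kb lay H3K27me3 of H1-10 OE for 19.3% of the members (17.7 to 20.9%), 27.6% (24.5 to 31.0%) of the new sites with Pol2S5p and 43.2% (39.2 to 47.3%) of the shared sites.

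**Figure D5:**
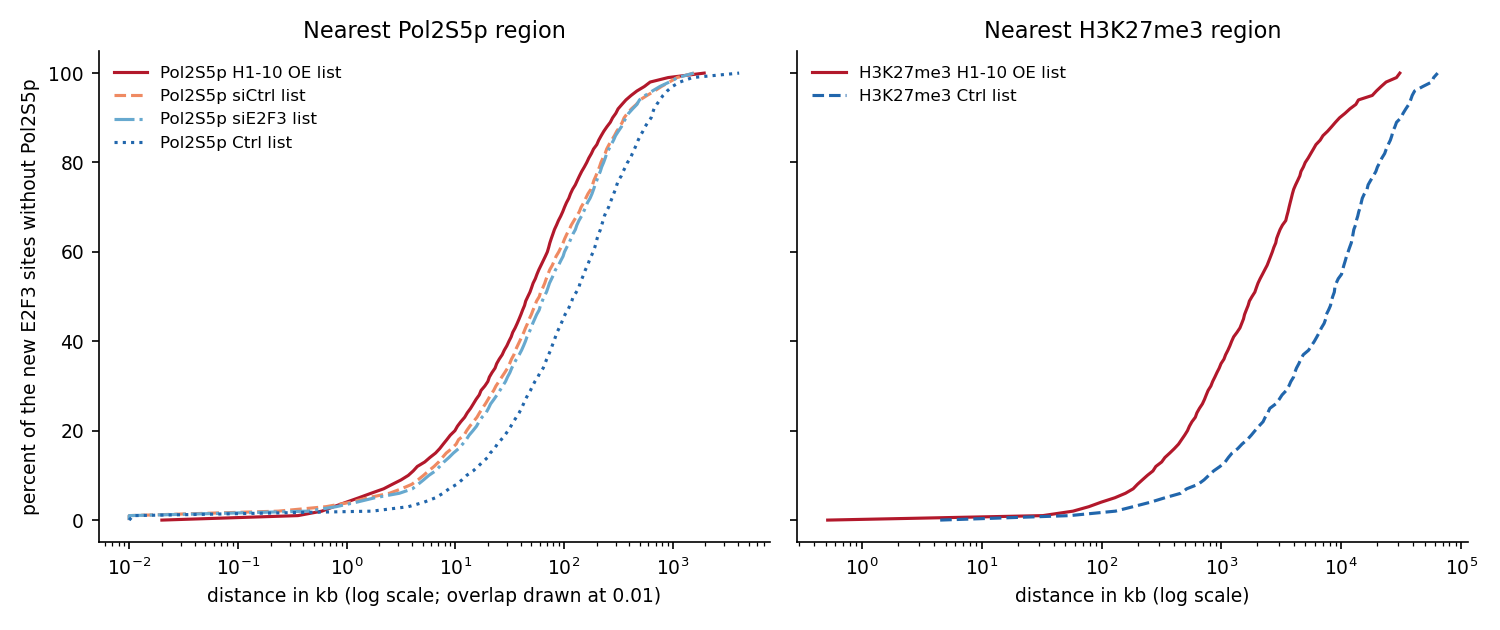
Cumulative percent of the 2332 new E2F3 sites without Pol2S5p against the distance to the nearest region of each Pol2S5p list (left) and H3K27me3 list (right), on log scales. The Pol2S5p H1-10 OE curve, with a median of 46.6 kb, lies left of Ctrl with 122 kb, and both H3K27me3 curves lie beyond 1 Mb at their medians (1800 and 8485 kb).

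The 10 most significant members were spread over 6 chromosomes, and 4 of them belonged to the group on chromosome 16. The first, at 46390684 to 46393381 of chromosome 16, was also the widest member at 2698 bp, with a fold of 23.7 and 215 kb between it and Pol2S5p of H1-10 OE. The other members of the group among the 10 lay at 46395004 to 46395542 (fold 36.7), 46388165 to 46390331 (fold 27.4) and 46406110 to 46407098 (fold 24.7). Outside that group the leading member lay on chromosome 2 at 68272249 to 68274346, 2098 bp wide with a fold of 36.7, and all 4 Pol2S5p lists and E2F3 of Ctrl had a region 15.4 to 15.6 kb from it. Chromosome 8 carried a pair: 37245845 to 37246809 with a fold of 33.2, at 3.79 kb from Pol2S5p of H1-10 OE, 306 kb from that of Ctrl and only 1.265 kb from an E2F3 region of Ctrl, and 36930711 to 36931511 with a fold of 29.1, at 25.8 and 622 kb. The member on chromosome 5 at 163782077 to 163782850 (fold 29.1) lay 1.51 kb from Pol2S5p of H1-10 OE and 146 kb from that of Ctrl. In contrast, the member on chromosome 3 at 158206441 to 158207222 (fold 29.8) lay 81.6 kb from both, with a siCtrl region at 6.14 kb. That on chromosome 4 at 120921866 to 120922567 (fold 28.5) lay 52.8 kb from Pol2S5p of H1-10 OE and 46.1 kb from that of Ctrl. Among the strongest members, polymerase far nearer in H1-10 OE than in Ctrl was thus found at those on chromosomes 5 and 8 and not at those on chromosomes 2, 3, 4 and 16.

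Width and significance did not always go together. The fourth longest member, on chromosome 7 at 80392407 to 80394079, spanned 1673 bp with a fold of only 6.33 and lay 2.43 kb from Pol2S5p of H1-10 OE. The fifth, on chromosome 5 at 91900830 to 91902439, spanned 1610 bp with a fold of 19.0, at 3.89 kb from Pol2S5p of H1-10 OE and 719 kb from that of Ctrl. Of the 41 members of at least 1 kb, 40 reached a -log10 q of 5.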

How the data were processed

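Narrow peak lists of 8 ChIP-seq libraries of 22Rv1 were used, 1 list per library. No source used here says whether reads were pooled for peak calling. The build hg19 and the tools Bowtie, fastp and FastQC are named, per the submitters' processing notes. The peak caller, tool versions and settings were not given in the sources used here. Each deposited list gives the authors' score per peak, the summit's fold enrichment (a ratio), and -log10 p and -log10 q values. They serve only to describe, rank or filter the regions of their own list. A folder name within the peak names separates E2F3, siCtrl and siE2F3 from the remaining lists. Distances from E2F3 sites to H3K27me3 and to Pol2S5p of Ctrl or H1-10 OE cross this line, and whether the authors' processing differed was not tested.

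Groups came from the sample titles. Overlap meant at least 1 shared base, and distances are the bases between region edges. Coordinates are 1-based on hg19. Members, comparison classes and thresholds were chosen with earlier results of these data known. Regions named are the 10 members with the highest -log10 q, the 5 longest, the strongest in each of the 5 fullest windows of 500 kb and those at the edge of the rule. No member overlapped H3K27me3. The members near that mark, the groups, and the member that overlaps 2 other Pol2S5p lists were named after their values were seen. With 1 library per group there was no test, and shares carry 95% Wilson intervals. No hg19 sequence or gene model was used, so the planned motif search, nearest genes and E2F target list were not run and no sequence is printed. The overlap code was tested on 500 planted regions and against bedtools, and passed all 10 checks. Python 3.11.15, numpy 2.4.6, pandas 2.3.3, scipy 1.17.1, matplotlib 3.10.9 and bedtools 2.31.1 were used. Alternatives changed the significance, the overlap, the Pol2S5p lists, the chromosomes and the distances.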

Additional observations from a re-analysis of the deposited data

How the results depend on the processing

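Under 5 other forms of the rule and other distances, 28 planned values stayed within the counting interval of the reported value, or within 1.5 times of the count, and 20 did not. With a -log10 q of at least 5, 1147 members were left, with a median width of 438 bp, 47.7% within 100 kb of another member and 0% within 5 kb of H3K27me3 of Ctrl. The chromosome with most members was then chromosome 4 in place of 3. With 50% reciprocal overlap in place of 1 base there were 2915 members, since sites with partial overlap then enter. The highest share of a chromosome was then 11.1%, and 56.5% lay within 100 kb of another member. Within 5 kb of Pol2S5p of H1-10 OE lay 29.2%, and 16.5% overlapped siCtrl. With no E2F3 of Ctrl or Pol2S5p of H1-10 OE within 1 kb, 8.81% lay within 5 kb of the latter, and with no overlap in any Pol2S5p list 0% overlapped siCtrl, as each rule dictates. With all autosomes and X, chromosome 13 held the highest share, 17.1%, and 63.3% of the members lay within 100 kb of another. Another member lay within 20 kb of 34.5% and within 500 kb of 82.8%. At 1 and 50 kb in place of 5 kb, the shares near Pol2S5p of H1-10 OE were 4.12 and 51.5%, near H3K27me3 of Ctrl 0 and 0.858%, and near H3K27me3 of H1-10 OE 0.0429 and 1.72%. Among new sites with a -log10 q of at least 5, added after the data were seen, 56.8% of the 1147 members lay within 100 kb of another new site. No paired analysis was possible because each group held 1 library. Read depth is unknown, so the lengths of the lists could not be scaled to it.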
